A study of Mus musculus with 12 samples.

Results

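The genes for the secreted and cell surface parts of the Wnt pathway were followed through chondrocytes of the E15.5 mouse forelimb zeugopod, the limb segment that holds the ulna and radius. The group was taken by gene symbol alone, as every row named for a Wnt, Fzd, Sfrp, Dkk, Rspo or Kremen gene together with *Frzb*, *Wif1*, *Lrp5*, *Lrp6*, *Porcn* and *Wls*. This gave 49 genes of the 36186 rows of the expression table. NRPKM, the unit of the table, is RPKM (reads per kilobase of transcript, scaled to the mapped reads of a library) after a further normalization between libraries by the authors. Of the 49 genes, 27 had 5 NRPKM or more in 3 or more libraries, the level that the study asked of a gene, and 22 did not. The 27 genes are 4 of 19 Wnt ligands, both ligand release genes, 9 of 10 Fzd receptors, both Lrp co-receptors, 4 of 5 genes of the Sfrp family, *Wif1*, 2 of 4 Dkk genes, both Kremen genes and 1 of 4 R-spondins.

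RNA-Seq was performed on 12 libraries, 3 per group, all from E15.5 forelimb zeugopod on a mixed 129/CD-1 background. The WT groups are the resting, proliferative and hypertrophic compartments, cut out separately by laser capture microdissection (LCM), and in the GEO labels the hypertrophic group goes under the name hyperproliferative. The mutant group, *aadd*, carries frameshift mutations of all 6 of the genes *Hoxa9*, *Hoxa10*, *Hoxa11*, *Hoxd9*, *Hoxd10* and *Hoxd11*, each made by a loxP insertion with a small deletion in the first exon. The labels name resting as the compartment of *aadd* too, but the study states that the whole chondrocyte population of the small mutant zeugopod was captured, so genotype and dissection cannot be told apart in a comparison with WT resting. The captured cells included some perichondrium. The study describes 3 independent sets, the labels name no embryos, and *P* values measure the spread between these samples. In bulk samples, fewer cells of a type and less RNA per cell cannot be told apart.

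Wnt proteins are lipid-modified by Porcn, a transferase of the endoplasmic reticulum, and carried to the cell surface by Wls. Canonical Wnts bind an Fzd receptor together with Lrp5 or Lrp6 and stabilize beta-catenin, whereas Wnt5a and related ligands act largely through Fzd and Ror receptors without it. Sfrp proteins, Frzb and Wif1 bind Wnts outside the cell, Dkk1 binds Lrp5 and Lrp6 with Kremen as its partner, and R-spondins raise the amount of Fzd and Lrp at the membrane by removing the Znrf3 and Rnf43 ubiquitin ligases. In growing cartilage the pathway is known for its part in chondrocyte maturation, in bone formation by osteoblasts and in joint formation.

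By the value that 1 read has in single-exon receptor and keratin-associated genes, the depth was 1890000 to 3240000 reads per library, with 1 read on 1 kb worth 0.309 to 0.529 NRPKM. The mutations leave mRNA to be measured. *Hoxd11* was at 25.1 to 35.4 NRPKM in *aadd* and 4.34 to 7.31 in WT resting, *Hoxd10* at 39.6 to 52.1 against 12.2 to 23.3 and *Hoxd9* at 22.5 to 29.6 against 5.59 to 8.79, while *Hoxa9* and *Hoxa10* overlapped between the groups and *Hoxa11* was at 5.17 to 11.1 against 11.3 to 30.5. One library stood apart. Hypertrophic replicate 1 had a summed level of 2614 NRPKM over the chondrocyte markers, against 560.4 and 803.5 in replicates 2 and 3, within the range of 2277 to 4346 of the WT resting and proliferative libraries. Its osteoclast markers summed to 51.5 NRPKM against 1351 and 995, its macrophage markers to 32.2 against 540 and 433.3, its endothelial markers to 21.8 against 302.6 and 210.2, and its erythroid markers to 63.4 against 373.1 and 410.7. In WT resting these 4 lists summed to at most 25.9, 18.7, 12.1 and 82.1 NRPKM. Hypertrophic chondrocyte markers summed to 1343 NRPKM in replicate 1 and to 2705 and 2696 in the others, against 77.2 to 116.6 in WT resting. The lower sum of replicate 1 lay with *Spp1* (24.1 against 1083 and 978.9) and *Mmp13* (3.05 against 734.6 and 661.2). *Col10a1* (263.8 against 166.3 and 220.6), *Ihh*, *Panx3*, *Pth1r*, *Runx2* and *Mef2c* were highest in replicate 1, *Alpl* was lowest there and *Sp7* lay between. *Spp1*, *Alpl* and *Sp7* are in the osteoblast list too. All 10 hypertrophic chondrocyte markers were called higher in hypertrophic than in resting. So were all 8 osteoblast markers tested (sums of 1629 to 4343 against 182.6 to 386.9 NRPKM), all 4 osteoclast and 3 of 4 macrophage markers tested, both endothelial markers tested, 5 of 10 perichondrial and fibroblast markers (908.2 to 2393 against 499.7 to 901.4) and 1 of 3 erythroid markers tested, while 7 of the 9 chondrocyte markers tested were called lower. Of all genes tested, 5.84% were called higher and 7.2% lower in hypertrophic than in resting. No marker of these lists was at 0 in all 3 hypertrophic libraries. *Mmp13*, *Dmp1*, *Phex*, *Mmp9*, *Atp6v0d2*, *Pecam1*, *Cdh5*, *Lyz2* and *Tyrobp* reached 5 NRPKM in 3 libraries only with their hypertrophic libraries. The filter thus favoured a higher call for these markers, and such calls are no independent support for a rise.

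The sequences just upstream of the transcription start are given for 4 genes on which the results turn, *Dkk1* and *Fzd5*, which rose towards the hypertrophic compartment, and *Sfrp2* and *Sfrp5*, which fell. RefSeq promoter entries on GRCm38.p6, the same build as mm10, matched 31 of the 49 genes and 15 of the 27 tested. Each run is the 250 bases before the start, 5′ to 3′ on the strand of the gene. Capitals mark TCAAAG, a core of sites bound by the TCF/LEF factors of the Wnt pathway, and TTTAT, a core preferred by posterior Hox proteins, on either strand (CTTTGA and ATAAA in reverse). The *Dkk1* window is chr19:30549497-30549746 on the minus strand, that of *Sfrp2* chr3:83766071-83766320 on the plus strand, that of *Sfrp5* chr19:42202253-42202502 on the minus strand and that of *Fzd5* chr1:64737751-64738000 on the minus strand.
Dkk1: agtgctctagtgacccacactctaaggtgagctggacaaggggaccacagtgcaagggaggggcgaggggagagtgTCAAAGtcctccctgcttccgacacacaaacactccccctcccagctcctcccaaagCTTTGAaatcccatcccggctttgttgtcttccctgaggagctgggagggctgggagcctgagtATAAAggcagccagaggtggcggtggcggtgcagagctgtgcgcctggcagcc
Sfrp2: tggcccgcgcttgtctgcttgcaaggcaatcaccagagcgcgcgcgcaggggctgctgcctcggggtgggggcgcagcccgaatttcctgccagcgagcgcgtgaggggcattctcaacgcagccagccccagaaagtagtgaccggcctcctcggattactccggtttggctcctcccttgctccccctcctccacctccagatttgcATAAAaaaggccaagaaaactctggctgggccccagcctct
Sfrp5: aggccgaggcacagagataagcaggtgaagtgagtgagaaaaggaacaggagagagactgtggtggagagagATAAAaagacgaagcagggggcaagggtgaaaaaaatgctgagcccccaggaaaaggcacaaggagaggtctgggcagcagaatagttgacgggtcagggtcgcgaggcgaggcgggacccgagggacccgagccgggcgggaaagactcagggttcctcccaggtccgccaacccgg
Fzd5: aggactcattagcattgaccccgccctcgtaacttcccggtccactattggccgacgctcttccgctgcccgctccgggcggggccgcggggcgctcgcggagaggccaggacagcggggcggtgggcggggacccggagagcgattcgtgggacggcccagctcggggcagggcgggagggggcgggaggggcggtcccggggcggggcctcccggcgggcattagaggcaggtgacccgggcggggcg
The *Dkk1* window holds TCAAAG letters at 174 and, in reverse, at 117 bases before the start, and 1 ATAAA at 53 bases that is part of TATAAA, the letters of a TATA box. *Sfrp2* holds 1 ATAAA at 41 bases and *Sfrp5* 1 at 178 bases, neither inside TATAAA, and *Fzd5* holds neither motif. Among all 32851 promoter entries of the table, 13.8% hold TCAAAG on a strand and 37.3% hold TTTAT. Among the 34 entries of the matched Wnt genes, 5 hold TCAAAG and 10 hold TTTAT, which is 14.7% and 29.4%. A match is a description of letters, not of a bound site.

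In WT resting the pathway was led by inhibitors and co-receptors. The order by mean level was *Sfrp1* at 75.1 ± 14.3 NRPKM (SD, n = 3), *Sfrp2* at 49.5 ± 14.0, *Lrp6* at 47.5 ± 3.05, *Lrp5* at 34.9 ± 7.63 and *Dkk3* at 33.2 ± 7.24. Neighbours in this order overlapped in their libraries, except *Lrp6* (44.0 to 49.5) and *Lrp5* (26.7 to 41.7). The highest ligand, *Wnt2b*, was the 15th of the 49 at 10.7 ± 2.32 NRPKM. In the hypertrophic compartment *Dkk1* stood first at 48.9 ± 9.84 NRPKM, followed by *Lrp6* at 30.2 ± 5.43, *Wnt5a* at 29.4 ± 11.2 and *Frzb* at 28.2 ± 9.64. The last 3 overlapped each other, and the highest *Wnt5a* library (42.0) lay above the lowest *Dkk1* library (38.2). In *aadd* the order was *Sfrp2* at 90.8 ± 8.42, *Dkk3* at 70.6 ± 17.8, *Sfrp1* at 64.6 ± 12.2 and *Lrp6* at 51.0 ± 8.63 NRPKM.

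**Figure D1:**
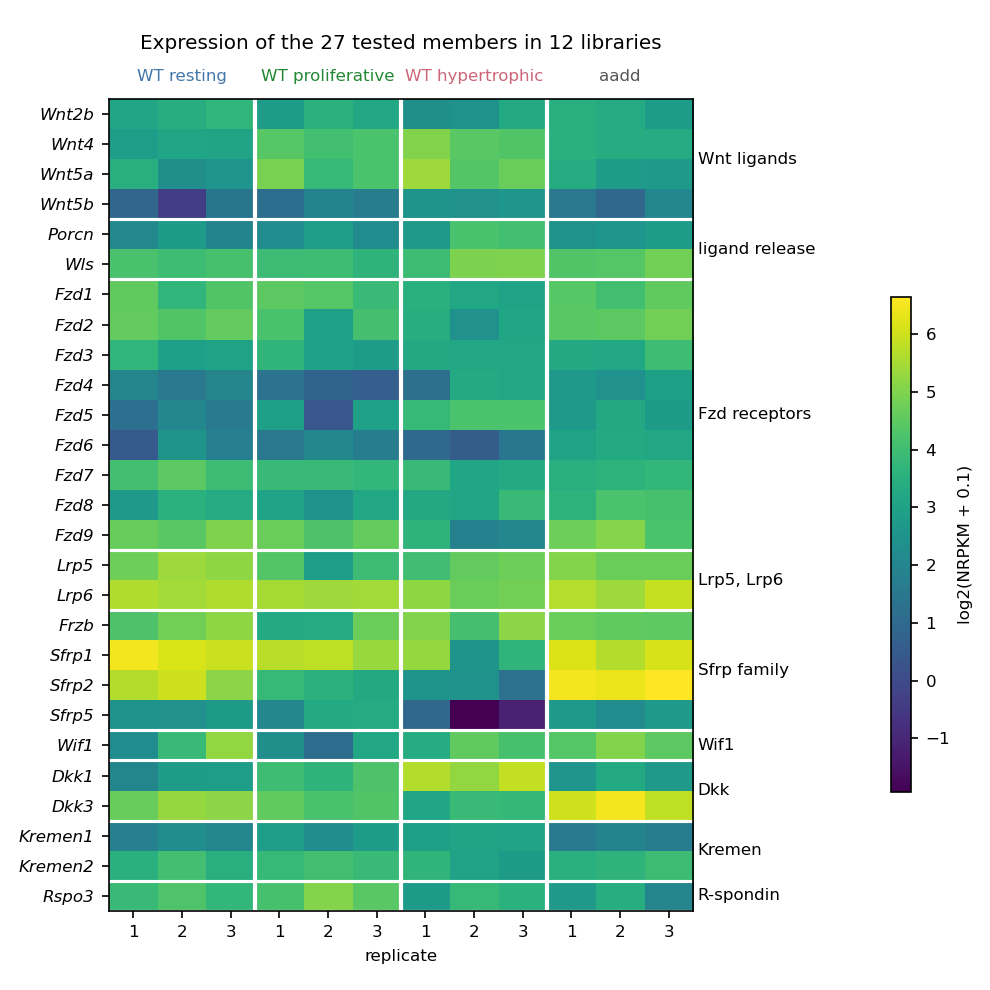
Expression of the 27 tested genes (rows, grouped by role) in the 12 libraries (columns, replicates 1 to 3 of each group) as log2(NRPKM + 0.1), from dark (low) to yellow (high). *Sfrp1* and *Sfrp2* are bright in WT resting and *aadd*, *Dkk1* in hypertrophic, and *Sfrp5* is darkest in hypertrophic replicates 2 and 3.

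Summed by role, ligands and the Sfrp family ran in opposite order along the WT compartments. The 19 ligands summed to 31.7, 32.3 and 35.9 NRPKM in the 3 resting libraries, to 52.6, 56.9 and 70.5 in proliferative and to 58.9, 66.5 and 100.1 in hypertrophic. The 5 Sfrp genes summed to 141.6, 165.5 and 168.3 NRPKM in resting, to 82.5, 87.9 and 88.5 in proliferative and to 33.5, 56.2 and 78.8 in hypertrophic. For both roles the resting range stood clear of the other WT compartments, whereas the proliferative and hypertrophic ranges overlapped for ligands and not for the Sfrp family. The sums moved mostly with *Wnt4* and *Wnt5a* and with *Sfrp1* and *Sfrp2*, and not every gene followed its role. From resting to hypertrophic, mean *Wnt2b* went from 10.7 to 6.75 NRPKM, *Frzb* from 27.8 to 28.2 and *Sfrp4* from 0.360 to 3.70. The 10 Fzd receptors summed to a mean of 114.7 ± 5.63 NRPKM in resting, 98.1 ± 14.97 in proliferative, 82.1 ± 6.88 in hypertrophic and 133.5 ± 8.87 in *aadd*.

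**Figure D2:**
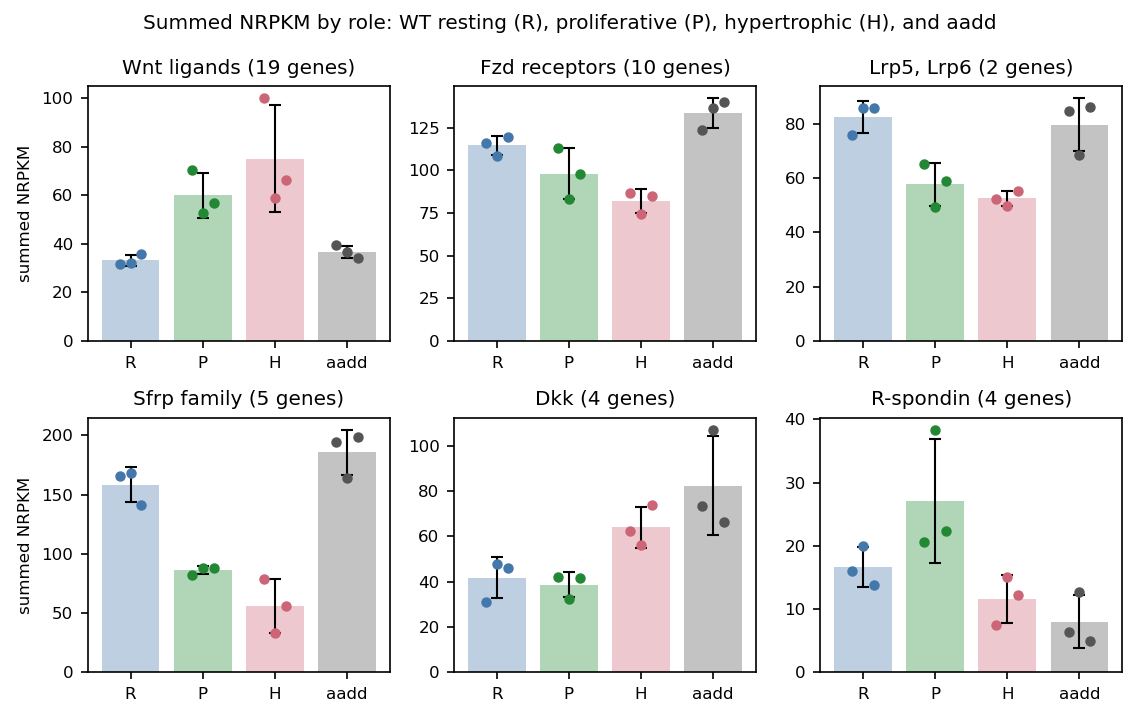
Summed NRPKM of each role (y axis) in WT resting (R), proliferative (P), hypertrophic (H) and *aadd*; points are libraries, bars are means and error bars are SD (n = 3). Ligands average 33.3 NRPKM in resting and 75.2 in hypertrophic, and the Sfrp family 158.5 and 56.1.

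Differences were tested with limma on log2(NRPKM + 0.1) over all 10936 genes at the same level of expression. A gene was called at an unadjusted *P* up to 0.05 with a fold change (FC) of 2 or more for WT compartments and of 1.5 or more for *aadd*. Benjamini-Hochberg adjusted *P* values over all 10936 genes are given beside the calls of the 27. The comparisons share groups. WT resting enters 3 of them and each other WT compartment 2, so that their values are not independent. Between proliferative and resting, 5 of the 27 genes were called, 3 higher and 2 lower, where 5.53% of all genes tested were (2.56% higher and 2.97% lower). Of the 27, 1 had an adjusted *P* under 0.05, against 0.622% of all genes. The median log2 difference was -0.13 for the 27 and -0.06 for all genes. Between hypertrophic and proliferative 10 of the 27 were called, 5 in each direction, against 9.67% of all genes (5.32% higher and 4.34% lower), and the median log2 difference was 0.06 for the 27 and 0.04 for all genes. For this comparison no gene of the 10936 had an adjusted *P* under 0.05, although 2115 genes (19.3%), 16 of them among the 27, had an unadjusted *P* up to 0.05. Between hypertrophic and resting 12 of the 27 were called, 6 in each direction, against 13% of all genes (5.84% higher and 7.2% lower), with median log2 differences of -0.53 for the 27 and -0.02 for all genes. Those called higher include *Wnt5b*, which reached 5 NRPKM only in hypertrophic libraries. Of the 27, 9 had an adjusted *P* under 0.05 in that comparison, against 6.36% of all genes, and 16 an unadjusted *P* up to 0.05, against 26.4%. The groups did not overlap for 11, 15 and 15 of the 27 genes in the 3 comparisons, against 24%, 24.2% and 32% of all genes.

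**Figure D3:**
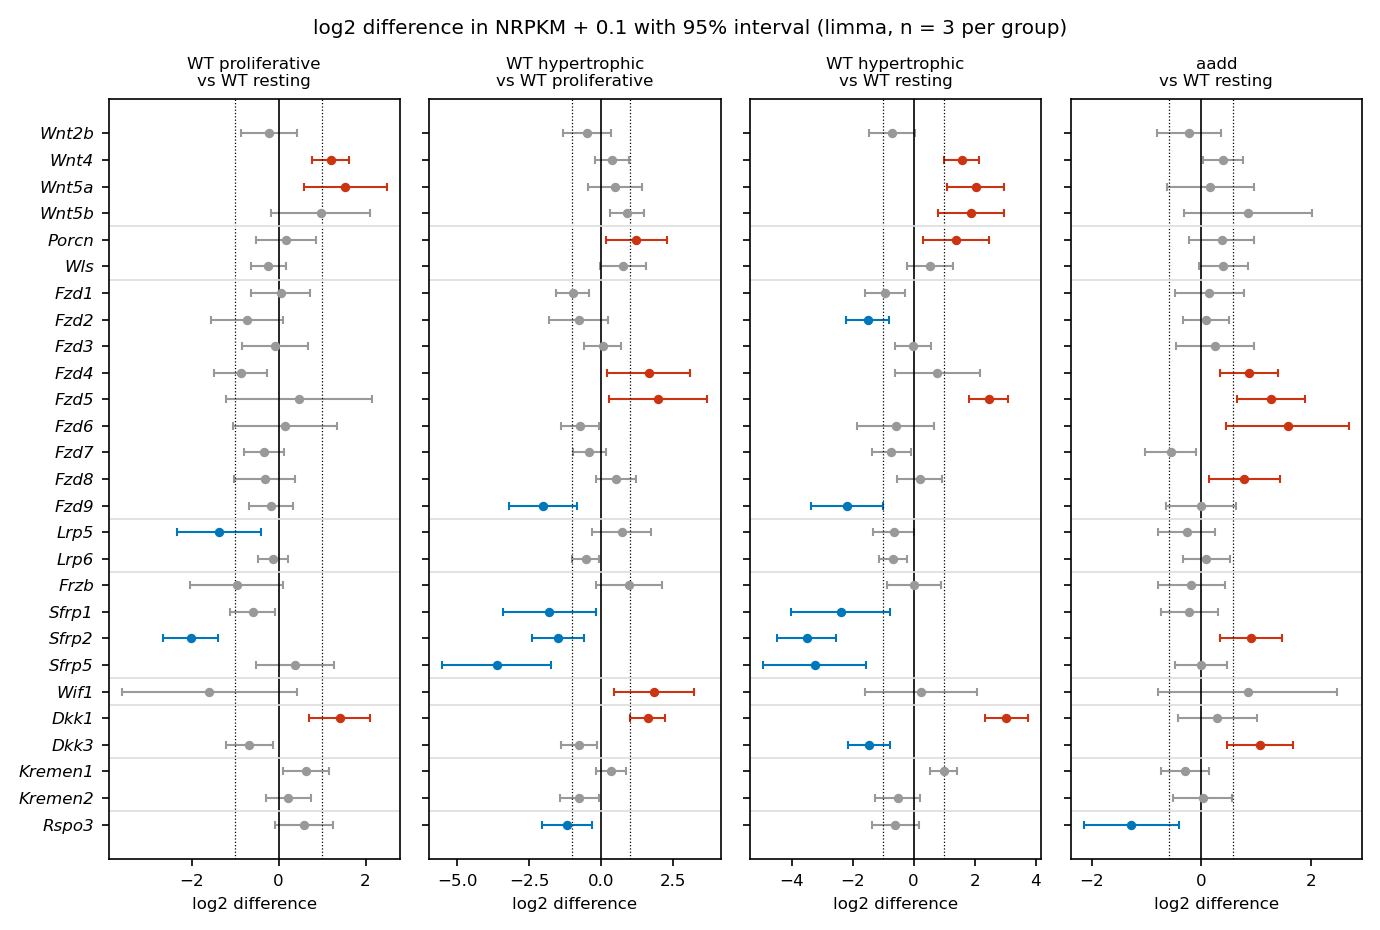
log2 difference (x axis) with its 95% interval for the 27 genes (rows, grouped by role) in the 4 comparisons, from limma with 3 libraries per group. Red and blue mark genes called higher and lower in the first-named group, grey those not called, and dotted lines mark the FC required. *Dkk1*, *Fzd5*, *Sfrp2* and *Sfrp5* lie farthest from 0 between hypertrophic and resting.

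*Wnt4*, *Wnt5a* and *Wnt5b* were the ligands that differed between WT compartments. *Wnt4*, a ligand with both canonical and non-canonical actions, was at 7.26, 8.60 and 8.38 NRPKM in resting, 21.5, 16.3 and 18.3 in proliferative and 32.6, 21.8 and 19.8 in hypertrophic. Every proliferative and hypertrophic library lay above every resting one. It rose 2.29-fold from resting to proliferative (log2 difference 1.19 ± 0.18 SE, adjusted *P* = 0.0503) and 2.97-fold from resting to hypertrophic (1.57 ± 0.23, adjusted *P* = 0.0189). *Wnt5a*, the typical non-canonical ligand, was at 10.9, 4.98 and 5.74 NRPKM in resting, 30.4, 14.0 and 18.6 in proliferative and 42.0, 20.5 and 25.7 in hypertrophic. It rose 2.90-fold from resting to proliferative (1.54 ± 0.39, adjusted *P* = 0.160) and 4.09-fold to hypertrophic (2.03 ± 0.39, adjusted *P* = 0.0377), and its proliferative and hypertrophic ranges overlapped. In each of the 4 groups the library numbered 1 had the most *Wnt5a*. Between resting and proliferative, with the replicate number as a block, limma gave adjusted *P* values of 0.0686 for *Wnt5a* and 0.102 for *Wnt4*.

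*Wnt5b*, which acts in chondrocyte maturation, was at 1.75, 0.664 and 2.55 NRPKM in resting, 2.13, 3.75 and 3.17 in proliferative and 5.64, 5.26 and 5.84 in hypertrophic. The hypertrophic libraries lay above all others. It rose 3.65-fold from resting to hypertrophic (1.87 ± 0.45, adjusted *P* = 0.0633), and the 0.97 log2 difference from resting to proliferative did not pass (adjusted *P* = 0.359). *Wnt5b* reached 5 NRPKM only in the hypertrophic libraries, so it was tested because of its level there. The filter thus favoured a rise to hypertrophic, and the call is no independent support for one. The *Wnt5b* values rest on few reads, 4.24 in resting replicate 2, and the row overlaps *Fbxl14* on the genome. *Wnt2b*, a canonical ligand, was at 8.53 to 13.2 NRPKM in resting, 6.80 to 11.9 in proliferative, 4.997 to 9.82 in hypertrophic and 6.80 to 10.8 in *aadd*, all overlapping, and was not called in any comparison. The remaining 15 ligands did not reach the level for testing.

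*Porcn*, on the X chromosome, was at 4.16, 6.61 and 3.71 NRPKM in resting, 4.52, 7.07 and 4.52 in proliferative and 6.48, 18.1 and 16.6 in hypertrophic. Hypertrophic replicates 2 and 3 lay above all WT libraries, and replicate 1 lay within the resting range. *Porcn* passed as 2.64-fold higher in hypertrophic than resting (1.40 ± 0.45, adjusted *P* = 0.113) and as 2.35-fold higher than in proliferative (1.23 ± 0.44, adjusted *P* = 0.222). Both calls were lost without hypertrophic replicate 2 (1.14 from resting and 0.97 from proliferative) or 3 (1.20 and 1.03). The first was also lost without resting replicate 1 (1.32) or 3 (1.24), and the other without proliferative replicate 1 or 3 (1.13 for each). *Wls* followed the same libraries. It was at 15.6 to 18.0 NRPKM in resting, 12.5 to 15.6 in proliferative, 15.3 in hypertrophic replicate 1 and 30.8 and 31.6 in replicates 2 and 3, and was not called.

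**Figure D4:**
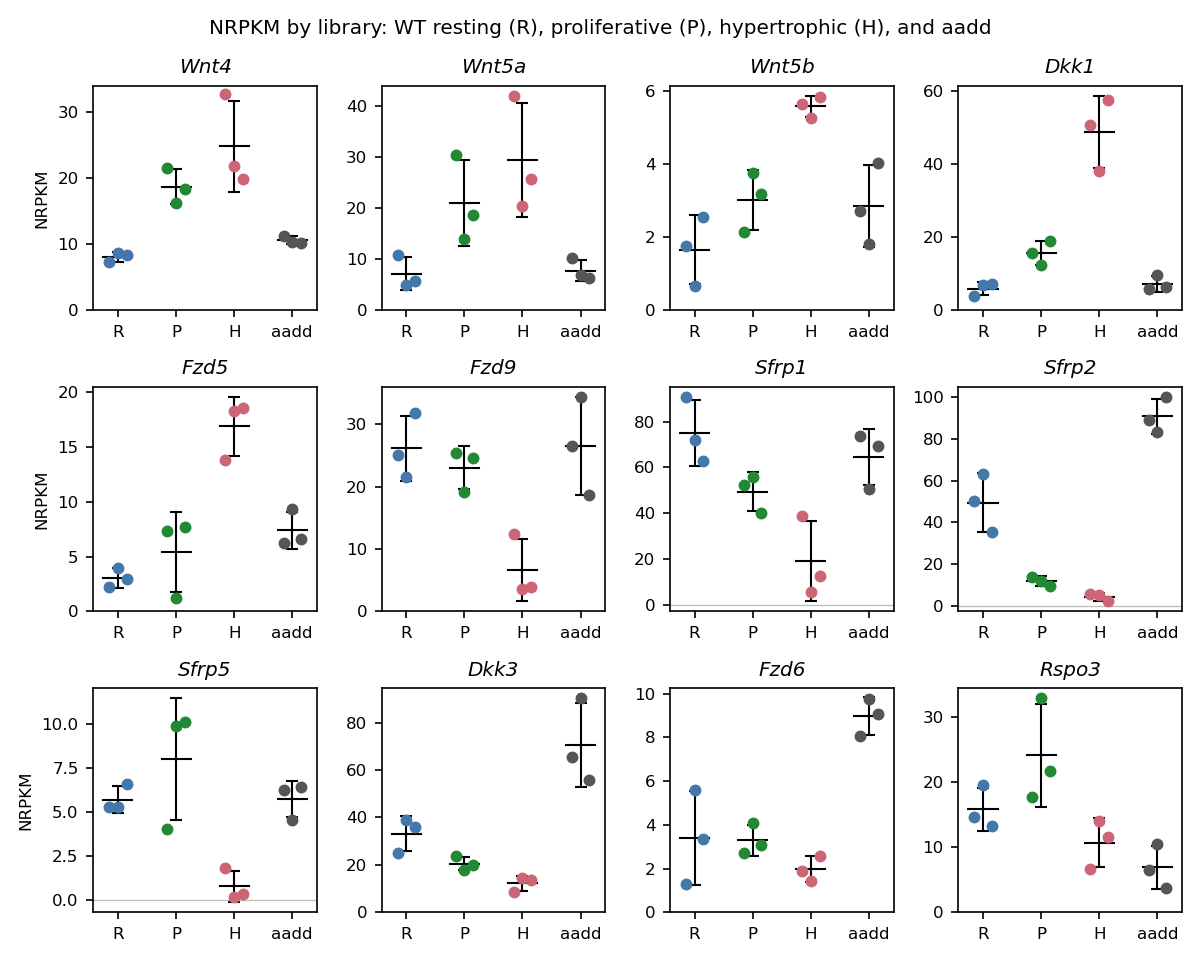
NRPKM (y axis) of 12 called genes in each library (points) of WT resting (R), proliferative (P), hypertrophic (H) and *aadd*; horizontal bars are means and error bars SD (n = 3). *Dkk1* and *Wnt5b* are highest in hypertrophic, *Sfrp2*, *Dkk3* and *Fzd6* in *aadd*, with no overlap with the other groups.

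The Fzd receptors, membrane proteins that bind Wnts with an extracellular cysteine-rich domain, came in a mix that differed between WT compartments. *Fzd5* was at 2.20, 3.98 and 2.94 NRPKM in resting, 7.35, 1.21 and 7.74 in proliferative and 13.8, 18.3 and 18.6 in hypertrophic. It rose 5.51-fold from resting to hypertrophic (2.46 ± 0.26, adjusted *P* = 0.00678), with no overlap. It passed as 3.97-fold higher in hypertrophic than proliferative (1.99 ± 0.70, adjusted *P* = 0.220), a call lost without hypertrophic replicate 2 (1.93) or 3 (1.91), and with no filter on low values (unadjusted *P* = 0.0514 from limma). *Fzd4*, which also binds the ligand norrin and is typical of endothelium, was at 3.86, 2.71 and 3.82 NRPKM in resting, 2.44, 1.70 and 1.44 in proliferative, and 2.25, 9.92 and 9.23 in hypertrophic. Hypertrophic replicate 1 lay within the proliferative range. *Fzd4* passed as 3.15-fold higher in hypertrophic than proliferative (1.66 ± 0.59, adjusted *P* = 0.223). Without hypertrophic replicate 2 or 3, or proliferative replicate 2 or 3, its difference was 1.29, 1.34, 1.61 and 1.496 and the call was lost. It was also lost with no filter on low values (unadjusted *P* = 0.0516 from limma) and in the fit blocked on replicate number (0.0568). Endothelial marker sums separated the same hypertrophic libraries (21.8 in replicate 1 against 302.6 and 210.2 NRPKM). Their part in *Fzd4* was not tested.

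*Fzd9* and *Fzd2* moved the other way. *Fzd9* was at 25.02, 21.6 and 31.8 NRPKM in resting, 25.3, 19.1 and 24.6 in proliferative and 12.4, 3.51 and 3.98 in hypertrophic. All hypertrophic libraries lay below all other WT libraries, replicate 1 nearest to them. It fell by 2.19 ± 0.49 on the log2 scale from resting to hypertrophic (adjusted *P* = 0.0544) and by 2.01 ± 0.49 from proliferative to hypertrophic (adjusted *P* = 0.153). *Fzd2* was at 23.7, 19.7 and 24 NRPKM in resting, 18.1, 7.78 and 17.4 in proliferative and 10.6, 5.16 and 8.70 in hypertrophic, and it fell by 1.51 ± 0.29 from resting to hypertrophic (adjusted *P* = 0.0380). The resting range lay above both others. *Fzd1* was at 23.3, 13.0 and 20.0 NRPKM in resting, 22.1, 20.8 and 14.5 in proliferative and 11.3, 9.24 and 8.13 in hypertrophic, below all other libraries, yet its log2 differences of -0.98 from proliferative and -0.94 from resting missed the FC of 2 (adjusted *P* = 0.153 and 0.0910). *Fzd7* (15.4 to 22.5 NRPKM in resting, 8.67 to 14.6 in hypertrophic), *Fzd8* (6.47 to 11.7 and 8.62 to 14.4), *Fzd3* (7.42 to 13.1 and 8.98 to 9.38) and *Fzd6* (1.31 to 5.61 and 1.42 to 2.60) were called in no WT comparison.

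Of the co-receptors, *Lrp5* was at 26.7, 41.7 and 36.4 NRPKM in resting, 20.5, 7.27 and 15.46 in proliferative, and 15.98, 23.7 and 27.1 in hypertrophic. All proliferative libraries lay below all resting ones. It fell by 1.37 ± 0.40 on the log2 scale from resting to proliferative (adjusted *P* = 0.193), and without proliferative replicate 2 the difference was -0.94, short of the FC of 2. *Lrp6* was steadier, at 44.0 to 49.5 NRPKM in resting, 42.0 to 44.6 in proliferative, and 36.4, 26.1 and 28.2 in hypertrophic. Its hypertrophic libraries lay below all others, with a log2 difference from resting of -0.66 (adjusted *P* = 0.0899) that missed the FC of 2.

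The Sfrp family, secreted proteins with a cysteine-rich domain like that of the receptors, held the steepest falls along the WT compartments. *Sfrp2* was at 50.1, 63.2 and 35.3 NRPKM in resting, 14.1, 11.99 and 9.55 in proliferative, and 5.56, 5.40 and 2.35 in hypertrophic. The 3 ranges did not overlap. It fell by 2.03 ± 0.27 on the log2 scale from resting to proliferative, with an adjusted *P* of 0.0383 that became 0.0686 with the replicate number as a block, by 1.48 ± 0.37 from proliferative to hypertrophic (adjusted *P* = 0.160), and by 3.51 ± 0.40 over the whole course (adjusted *P* = 0.00828). *Sfrp1* was at 90.7, 71.8 and 62.6 NRPKM in resting, 52.5, 56.0 and 40.0 in proliferative, and 38.7, 5.58 and 12.7 in hypertrophic, so that hypertrophic replicate 1 lay just under the proliferative range and replicates 2 and 3 far below it. It fell by 2.40 ± 0.67 from resting to hypertrophic (adjusted *P* = 0.0857). The fall of 1.80 ± 0.67 from proliferative to hypertrophic (adjusted *P* = 0.235) was not called when any library but hypertrophic replicate 1 was left out, with differences of -1.14 to -1.94, and was -2.53 (adjusted *P* = 0.0172) without replicate 1. It was not called with no filter on low values either (unadjusted *P* = 0.0602 from limma). The -0.60 from resting to proliferative missed the FC of 2 (adjusted *P* = 0.258).

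*Sfrp5* was at 5.28, 5.26 and 6.59 NRPKM in resting, 4.02, 9.90 and 10.1 in proliferative, and 1.80, 0.163 and 0.353 in hypertrophic. The hypertrophic libraries hold about 8, 1 and 2 reads of the gene, against 24 to 32 in resting, so its exact fold depends on the pseudocount. It fell by 3.25 ± 0.70 on the log2 scale from resting to hypertrophic (adjusted *P* = 0.0489) and by 3.62 ± 0.78 from proliferative (adjusted *P* = 0.136). *Frzb*, also called Sfrp3 and known from cartilage, was at 18.7, 28.1 and 36.7 NRPKM in resting, 9.90, 9.95 and 26.1 in proliferative, 17.3 to 35.4 in hypertrophic and 22.5 to 25.4 in *aadd*. The groups overlapped, and it was not called in any comparison. In each same-numbered pair the proliferative library was below the resting one. With the replicate number as a block the log2 difference of -0.96 had an unadjusted *P* of 0.01225 in limma (adjusted *P* = 0.169), short of the FC of 2. *Wif1*, which binds Wnts through a domain of its own, had a wide spread in resting, at 4.61, 14.8 and 37.9 NRPKM. It was at 4.92, 2.02 and 8.92 in proliferative and 10.4, 23.5 and 17.8 in hypertrophic, and passed as 3.59-fold higher in hypertrophic than proliferative (1.84 ± 0.58, adjusted *P* = 0.193), a call lost without hypertrophic replicate 2 (1.58). Its log2 difference of -1.60 from resting to proliferative missed the call (unadjusted *P* = 0.102 from limma), and passed with the replicate number as a block (0.0495).

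*Dkk1* and *Dkk3* went in opposite directions. *Dkk1*, the Lrp5 and Lrp6 antagonist, was at 3.94, 6.85 and 7.17 NRPKM in resting, 15.8, 12.3 and 19.1 in proliferative, and 50.8, 38.2 and 57.6 in hypertrophic. The 3 ranges did not overlap, and hypertrophic replicate 1 lay between the other two. It rose 2.65-fold from resting to proliferative (1.40 ± 0.29, adjusted *P* = 0.108), 3.10-fold from proliferative to hypertrophic (1.63 ± 0.25, adjusted *P* = 0.110) and 8.21-fold over the whole course (3.04 ± 0.29, adjusted *P* = 0.00509). *Dkk3*, a divergent family member whose link to Lrp receptors is less settled, was at 25.1, 38.8 and 35.8 NRPKM in resting, 23.6, 18.0 and 20.0 in proliferative, and 8.47, 14.5 and 13.7 in hypertrophic. Again the 3 ranges did not overlap. It fell by 1.45 ± 0.29 on the log2 scale from resting to hypertrophic (adjusted *P* = 0.0400), and the steps of -0.68 and -0.77 missed the FC of 2 (adjusted *P* = 0.227 and 0.210).

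*Kremen1*, a receptor for Dkk proteins, was at 3.41, 4.70 and 3.89 NRPKM in resting, 7.18, 4.78 and 6.91 in proliferative, and 7.59, 8.28 and 7.92 in hypertrophic. The hypertrophic libraries lay above all others and varied little, but the log2 difference of 0.98 from resting fell just short of the FC of 2 (adjusted *P* = 0.0335). Outside hypertrophic, *Kremen1* reached 5 NRPKM only in proliferative replicates 1 and 3. It was tested through its hypertrophic libraries, so the filter favoured a rise. *Kremen2* was at 10.7 to 16.7 NRPKM in resting, 13.9 to 16.3 in proliferative and 6.66 to 12.7 in hypertrophic, and was not called. Of the R-spondins only *Rspo3* reached the level for testing, at 14.7, 19.5 and 13.3 NRPKM in resting, 17.8, 33.0 and 21.7 in proliferative, and 6.63, 14.0 and 11.5 in hypertrophic. It was highest in proliferative, and its hypertrophic libraries lay below the proliferative ones. It fell by 1.18 ± 0.36 on the log2 scale from proliferative to hypertrophic (adjusted *P* = 0.189), a call lost without proliferative replicate 2 (-0.93) or hypertrophic replicate 1 (-0.87). The row overlaps *Gm20276*, and rows for *Wls*, *Kremen2* and *Fzd3* also overlap other genes, whose reads may be shared because the use of strand is not given in the sources used here.

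Several hypertrophic results turned on whether replicate 1 was counted. Its values were nearer to the resting and proliferative libraries than those of replicates 2 and 3 for *Porcn*, *Wls*, *Fzd4*, *Fzd9*, *Sfrp1* and *Sfrp5*, which is also how its chondrocyte, osteoclast, macrophage, endothelial and erythroid marker sums lay. For *Wnt4* and *Wnt5a* it was the highest library, and for *Dkk1* it lay in the middle. Without it, 12 of the 27 genes were called between hypertrophic and proliferative, against 18.4% of all genes tested, and 11 had an adjusted *P* under 0.05, against 17.4%, among them *Fzd9* (-2.58, adjusted *P* = 0.00509), *Fzd4* (2.33, adjusted *P* = 0.00888), *Sfrp5* (-4.44, adjusted *P* = 0.00888), *Porcn* (1.70, adjusted *P* = 0.0166) and *Dkk1* (1.60, adjusted *P* = 0.0239). Without replicate 2 or without replicate 3, 6 were called, against 6.45% and 6.02% of all genes. The part of the other cell types in these differences was not tested.

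In *aadd*, several receptors and inhibitors were higher than in WT resting while the ligands were near the resting level. Of the 27 genes, 7 were called, 6 higher and 1 lower, where 6.56% of all genes were called (3.78% higher and 2.78% lower). Those called higher include *Fzd4* and *Fzd6*, which reached the level for testing only with their *aadd* libraries. None of the 27 had an adjusted *P* under 0.05 in limma, as 0.119% of all genes did, and 9 of the 27 had an unadjusted *P* up to 0.05, against 9.58% of all genes. The groups did not overlap for 10 of the 27 genes, against 15.4% of all genes. The median log2 difference was 0.17 for the 27 genes and 0.01 for all genes tested.

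The inhibitors stood at the highest levels. *Sfrp2* was at 89.1, 83.3 and 99.9 NRPKM in *aadd*, above all 3 resting libraries (50.1, 63.2 and 35.3), and rose 1.88-fold (log2 difference 0.91 ± 0.24 SE, adjusted *P* = 0.310). *Dkk3* was at 65.3, 90.5 and 55.9 NRPKM against 25.1, 38.8 and 35.8, again with no overlap, and rose 2.11-fold (1.08 ± 0.26, adjusted *P* = 0.253). Both genes were at their lowest in the WT hypertrophic compartment. *Sfrp1* (73.7, 50.7 and 69.2 NRPKM), *Sfrp5* (6.24, 4.55 and 6.43), *Frzb* and *Dkk1* (5.78, 9.76 and 6.41) overlapped the resting libraries and were not called, with log2 differences of -0.22, 0.00, -0.18 and 0.30. The 95% intervals of these were -0.75 to 0.31, -0.48 to 0.47, -0.79 to 0.43 and -0.42 to 1.02. *Wif1* was at 20.9, 32.6 and 22.4 NRPKM, within its wide resting range.

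Of the 9 Fzd receptors tested, 4 were called higher in *aadd*. *Fzd6*, best known from planar cell polarity, was at 8.05, 9.77 and 9.09 NRPKM in *aadd*, above all 9 WT libraries, of which the highest was 5.61, and rose 2.99-fold over resting (1.58 ± 0.47, adjusted *P* = 0.355). Outside *aadd*, *Fzd6* reached 5 NRPKM only in resting replicate 2. It was tested through its *aadd* libraries, so the filter favoured this call, which is no independent support for a rise. *Fzd5* was at 6.29, 9.34 and 6.62 NRPKM against 2.20 to 3.98 in resting and rose 2.42-fold (1.28 ± 0.27, adjusted *P* = 0.210). *Fzd4* was at 6.36, 5.22 and 7.68 NRPKM against 2.71 to 3.86 and rose 1.83-fold (0.87 ± 0.22, adjusted *P* = 0.281), a call lost when all 12 libraries shared one fit. Outside *aadd*, *Fzd4* reached 5 NRPKM only in hypertrophic replicates 2 and 3. It too was tested through its *aadd* libraries, so the filter favoured this call, which is no independent support for a rise. *Fzd8* was at 12.2, 18.3 and 17.7 NRPKM against 6.47, 11.7 and 10.1 and passed as 1.73-fold higher (0.79 ± 0.28, adjusted *P* = 0.431), but not without resting replicate 1 (0.54), *aadd* replicate 2 (0.68) or *aadd* replicate 3 (0.71). For each of these receptors the *aadd* and resting ranges did not overlap. *Fzd7* lay below resting without overlap, at 11.1, 12.3 and 13.3 NRPKM, with a log2 difference of -0.56 that missed the FC of 1.5 (adjusted *P* = 0.431). *Fzd1*, *Fzd2*, *Fzd3* and *Fzd9* overlapped the resting libraries, as did *Lrp5* and *Lrp6*.

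*Rspo3* was the gene called lower. It was at 6.45, 10.5 and 3.82 NRPKM in *aadd*, below all 3 resting libraries (14.7, 19.5 and 13.3), and fell by 1.28 ± 0.37 on the log2 scale (adjusted *P* = 0.334). Of the ligands, *Wnt4* was at 11.3, 10.4 and 10.1 NRPKM, above the 7.26 to 8.60 of resting and below the 16.3 or more of the other WT compartments, with a log2 difference of 0.39 under the FC of 1.5 (adjusted *P* = 0.490). *Wnt5a* was at 10.2, 6.87 and 6.33 NRPKM, within the resting range, with a log2 difference of 0.17 and a 95% interval of -0.63 to 0.96. *Wnt5b* was at 2.72, 1.81 and 4.04 NRPKM and *Wls* at 19.6, 21.0 and 27.9, and neither was called. By group means, 17 of the 27 genes in *aadd* were nearest to WT resting, 5 to proliferative and 5 to hypertrophic.

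The summed level of the listed joint markers was higher in *aadd* than in WT resting. The 9 joint markers summed to 245.6 to 281.3 NRPKM in *aadd* and to 103.2 to 184.6 in WT resting, and 5 of the 9 were called higher. None of them was at 0 in all 3 libraries of a group. The study had already reported *Gdf5*, *Osr1*, *Dcx* and *Sulf1* as higher in *aadd* from the same libraries, with *Sulf1* under BMP signaling. Their rise here is no independent support for more joint cells. *Barx1* reached 5 NRPKM in 3 libraries only with its *aadd* libraries, so the filter favoured a rise. The study reported no elevation of the joint markers *Osr2*, *Cux1* and *Erg*. These overlapped between *aadd* and resting here, as did *Prg4*, at 3.38, 2.92 and 1.55 NRPKM against 1.51, 7.36 and 34.4. *Sulf1* was at 67.05, 57.1 and 60.2 NRPKM in *aadd* and 21.3, 12.9 and 28.95 in resting. It was at 6.61, 65.1 and 87.3 in hypertrophic, so it did not mark joint cells alone. Skeletal muscle markers summed to 18.5 to 61.6 NRPKM against 8.74 to 17.6, with both of the 2 that were tested called higher. Also called were 1 of 10 perichondrial and fibroblast markers and 1 of 4 macrophage markers tested, both higher, and 1 of 10 hypertrophic chondrocyte markers, lower. Of all genes tested, 3.78% were called higher and 2.78% lower in *aadd* than in resting. The median log2 difference was 1.07 for the 4 macrophage markers. Erythroid markers summed to 61.1 to 189.8 NRPKM in *aadd* and 35.9 to 82.1 in resting, and overlapped. Hypertrophic chondrocyte markers (55.7 to 87.5 against 77.2 to 116.6 NRPKM) and perichondrial and fibroblast markers (527.9 to 1213 against 499.7 to 901.4) overlapped. *aadd* replicate 2 had the highest endothelial (38.9) and macrophage (53.8) sums of the *aadd* and resting libraries, and 6 of the 27 genes were called without it, against 7.64% of all genes. The part of these markers in the Wnt genes was not tested.

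Over all 4 groups limma's moderated F test gave an adjusted *P* under 0.05 for 14 of the 27 genes, where 13.8% of all genes passed. They are *Sfrp2* (adjusted *P* = 0.000124), *Dkk1* (0.000536), *Dkk3* (0.00138), *Wnt4* (0.00225), *Kremen1* (0.00567), *Sfrp5* (0.00883), *Wnt5a* (0.0121), *Fzd9* (0.0134), *Fzd2* (0.0268), *Fzd6* (0.0276), *Rspo3* (0.0367), *Sfrp1* (0.0367), *Fzd1* (0.0439) and *Lrp6* (0.0462). Across the alternatives run, *Dkk1*, *Dkk3*, *Kremen1*, *Sfrp2*, *Wnt4* and *Wnt5a* passed in each, and the count was 6 to 20 with 1 library left out (20 without hypertrophic replicate 1, 6 and 7 without hypertrophic replicates 3 and 2, and 8 without *aadd* replicate 1 or 3). Of all genes tested, 28.1% passed without hypertrophic replicate 1, 5.74% and 7.16% without replicates 3 and 2, and 8.97% and 9.27% without *aadd* replicates 1 and 3. The hypertrophic compartment held the highest mean of 10 of the 27 genes and the lowest of 12, and *aadd* the highest of 10 and the lowest of 2. Among the 27, *Wnt5b* and *Kremen1* reached the level for testing only with their hypertrophic libraries, and *Fzd4* and *Fzd6* only with their *aadd* libraries.

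The rest of the pathway was followed in 3 lists. Of 12 partners at the receptor, 10 were tested, with median log2 differences of -0.17 between proliferative and resting, -0.20 between hypertrophic and proliferative, -0.06 between hypertrophic and resting and -0.15 for *aadd*, where those of all genes tested were -0.06, 0.04, -0.02 and 0.01. The receptor kinases *Ror1* and *Ror2*, which bind Wnt5a, fell along the WT course. *Ror2* was at 13.2, 11.2 and 10.9 NRPKM in resting, 8.33, 5.30 and 6.93 in proliferative, and 3.44, 2.18 and 1.86 in hypertrophic, and fell by 2.23 on the log2 scale over the course (adjusted *P* = 0.00886). *Ror1* fell by 3.32 (adjusted *P* = 0.02002), from 5.06 to 5.96 NRPKM in resting to 0.194 to 1.14 in hypertrophic. Outside resting, *Ror1* reached 5 NRPKM only in *aadd* replicate 2. It was tested through its resting libraries, so the filter favoured a fall, and the call is no independent support for one. In *aadd*, *Ror2* was at 5.36 to 7.16 NRPKM and *Ptk7*, another receptor-like kinase of the pathway, at 7.68 to 11.9 against 13.9 to 15.1 in resting, both called lower (-0.92 and -0.62, adjusted *P* = 0.186 and 0.376), and *Cthrc1*, a secreted cofactor of Wnt and Ror2, was higher at 202.4 to 278 against 139.5 to 177.4 NRPKM (0.65, adjusted *P* = 0.350). In this list the numbers called higher and lower were 0 and 1 between proliferative and resting, 1 and 3 between hypertrophic and proliferative, 1 and 2 between hypertrophic and resting, and 1 and 2 for *aadd*. Of all genes tested, 2.56% and 2.97%, 5.32% and 4.34%, 5.84% and 7.2%, and 3.78% and 2.78% were called higher and lower in that order. The other calls were *Gpc3* and *Lgr6* between hypertrophic and proliferative (log2 differences -1.35 and 3.24, adjusted *P* = 0.225 and 0.122) and *Gpc4* between hypertrophic and resting (1.05, adjusted *P* = 0.0321).

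Of 6 other extracellular or membrane inhibitors, 5 were tested, with medians of 0.10, -0.63, 0.76 and 0.29 in the same order. *Trabd2b*, a protease that inactivates Wnts, was at 14.3, 18.9 and 28.1 NRPKM in resting, 3.51, 4.36 and 8.76 in proliferative, 1.56, 0.373 and 0.660 in hypertrophic, and 35.5, 41.5 and 30.5 in *aadd*. No WT range overlapped another, and *aadd* lay above all of them. *Trabd2b* fell by 4.55 on the log2 scale from resting to hypertrophic (adjusted *P* = 0.00731) and was 0.85 higher in *aadd* than resting (adjusted *P* = 0.379). *Tpbg*, a membrane glycoprotein that dampens canonical signaling, was called higher in proliferative (1.09), hypertrophic (1.97) and *aadd* (0.97) than in resting, with adjusted *P* values of 0.176, 0.0904 and 0.379. *Notum*, a secreted enzyme that removes the lipid from Wnts, was called higher in proliferative than resting (1.57, adjusted *P* = 0.269). It reached 5 NRPKM only in proliferative replicates 1 and 2 and hypertrophic replicate 1, so the filter favoured this call. Proliferative replicate 3, at 2.749 NRPKM, was level with resting replicate 3, at 2.747. *Sostdc1* and *Apcdd1* were not called. In all, 2 of the 5 were called higher and 1 lower between proliferative and resting, 0 and 1 between hypertrophic and proliferative, 1 and 1 between hypertrophic and resting, and 2 and 0 for *aadd*. In either direction, 5.53%, 9.67%, 13% and 6.56% of all genes tested were called in these comparisons.

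Of 16 intracellular transducers, 15 were tested, with medians of -0.13, 0.07, 0.00 and -0.08, and 12 were called in no comparison. The others were *Nkd1* and *Lef1* and *Tcf7*, transcription factors through which beta-catenin acts. *Tcf7* was at 1.74, 2.09 and 3.09 NRPKM in resting, 23.0, 10.4 and 27.8 in proliferative, and 68.4, 35.7 and 46.2 in hypertrophic, with no overlap, and rose by 4.37 on the log2 scale over the course (adjusted *P* = 0.00218). *Lef1* was at 26.6, 37.0 and 15.02 NRPKM in resting and 9.12, 5.20 and 6.30 in hypertrophic, a fall of 1.86 (adjusted *P* = 0.0431). In *aadd* it was at 2.12, 1.79 and 2.31 NRPKM, below every WT library, and fell by 3.51 from resting (adjusted *P* = 0.0326). *Nkd1*, a target and inhibitor of the pathway, fell by 1.51 from resting to hypertrophic (adjusted *P* = 0.0287). *Axin2*, a feedback inhibitor widely used as a readout of canonical Wnt activity, was called in no comparison, at 5.58 to 6.79 NRPKM in resting, 6.90 to 12.5 in proliferative, 16.1, 3.56 and 3.85 in hypertrophic and 6.97 to 8.66 in *aadd*. For this list 1 gene was called higher and 0 lower between proliferative and resting, 1 and 2 in both hypertrophic comparisons, and 0 and 1 for *aadd*. Of all genes tested, 5.53% were called between proliferative and resting, 9.67% and 13% in the hypertrophic comparisons with proliferative and resting, and 6.56% for *aadd*.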

How the data were processed

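RNA-Seq libraries, 12 in all, were made from 20 ng of total RNA each with the NuGen Ovation V2 and Nextera kits. The authors aligned reads to mm10 (TopHat, per the submitters' processing notes), removed duplicate and multiply aligned reads, and used GeneSpring for expression. What they deposited is RPKM normalized further between libraries (NRPKM), by a method not given in the sources used here. The file gives no counts. Depth came from 1589 single-exon receptor and keratin-associated genes, and approximate reads per gene from exon lengths of an mm10 annotation. Both cover counting error only.

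For testing, NRPKM was taken as log2(NRPKM + 0.1) into limma 3.58.1 (R 4.3.3). Tables and plots were made with pandas 2.3.3 and matplotlib 3.10.9 under Python 3.11.15. The level for testing (5 NRPKM in 3 libraries) left 10936 genes. A pairwise comparison took its 6 libraries, without covariates. Fold changes are on this log scale and understate changes of low genes. Errors are SD for levels and SE for log2 differences. Genes named are all members at that level, per library where called, and the other pathway lists by count and, where called, with values. *Axin2*, *Sostdc1* and *Apcdd1* were named besides, after their values were seen. Members, lists and markers were chosen with earlier results of these data known.

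Replicate numbers 1 to 3 are shared by the groups. Libraries with the same number deviated together from their group means between WT resting and proliferative, with *r* of 0.281, 0.179 and 0.198 across genes, all above 0.1, so there the numbers were taken to pair samples, and a fit with the number as a block was run. Besides this block, the alternatives were quantile normalization, rescaling by the median of ratios, a pseudocount of 1, a variance trend, one fit of all 12 libraries, no filter on low values, the filter over the 6 libraries compared, and leaving out each library.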

Additional observations from a re-analysis of the deposited data

How the results depend on the processing

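Of 34 called differences, each taken under the alternatives in which its gene was tested (474 in all), 443 stayed called in the same direction, 31 kept their direction but missed the call, and 0 reversed. The filter over the 6 libraries compared left out *Fzd4* and *Sfrp5* between hypertrophic and proliferative. With the replicate block, the genes called were 6 between proliferative and resting, 9 between hypertrophic and proliferative, 12 between hypertrophic and resting and 8 for *aadd*, against 6.14%, 9.38%, 13.4% and 7.21% of all genes tested, and 13 passed the F test over 4 groups, against 1272 of all 10936. The block lowered the number with an adjusted *P* under 0.05 between hypertrophic and resting from 9 to 5 (of all genes, from 6.36% to 2.2%). Outside the pair of proliferative and resting, same-numbered libraries did not all deviate together (*r* from -0.0973 to 0.28), so there the samples share only a number. Between proliferative and resting the block added *Wif1* to the calls and moved the adjusted *P* of *Sfrp2* past 0.05, with its call kept, and it changed no other call in that pair.

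Leaving out 1 library at a time gave 5 to 7 genes called between proliferative and resting (4.65% to 7.4% of all genes), 6 to 12 between hypertrophic and proliferative (6.02% to 18.4%, with 6 genes without hypertrophic replicate 2 or 3), 11 to 15 between hypertrophic and resting (10.9% to 19.2%), 6 to 10 for *aadd* (5% to 9.12%) and 6 to 20 by the F test (5.74% to 28.1%). With no filter on low values 8 of the 49 passed the F test, against 3.93% of all genes, with more genes tested. Depth limits what can be said of genes at a few reads, such as *Sfrp5* in hypertrophic and *Wnt5b* in resting, and of the 22 genes under the level for testing.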

Other observations

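The values here are of genes among the 22 under the level for testing, and have no test. *Sfrp4*, a family member linked to bone, reached 5.05 and 5.38 NRPKM in hypertrophic replicates 2 and 3, against 0.659 in replicate 1 and no more than 2.85 elsewhere. *Wnt11*, a non-canonical ligand, was highest in hypertrophic replicate 1 (6.87 NRPKM, about 58.0 reads) and low in the other hypertrophic libraries (0.297 and 0.0689), with 1.33 to 3.503 in proliferative, 0.668 to 1.38 in resting and 1.02 to 1.73 in *aadd*. *Wnt10b*, a canonical ligand tied to osteoblast formation, was at 1.71, 3.15 and 2.59 NRPKM in hypertrophic, 0.696 to 1.18 in proliferative, and at most 0.924 in resting and 0.404 in *aadd*. *Wnt9a*, known from developing joints, was at 0.816, 1.53 and 3.54 NRPKM in resting, 1.72, 3.15 and 2.32 in *aadd*, 1.10 to 2.23 in proliferative, and 0.372 to 0.774 in hypertrophic.

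*Dkk2* was at 2.43, 6.87 and 4.05 NRPKM in *aadd* and 1.80 to 3.30 in the WT libraries. *Rspo4* reached 3.75 NRPKM in proliferative replicate 2 and was at 0.223 in proliferative replicate 3. Of the 19 ligands, 9 stayed under 1 NRPKM in every library, as did *Dkk4* and *Rspo1*.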
